A study of Mus musculus with 6 samples.

Results

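Transcripts of the Hippo pathway and of trophectoderm priming were examined in mouse 2-cell embryos. The set held 10 genes, Tead1, Tead4, Yap1, Wwtr1, Lats1, Lats2, Amot, Amotl2, Cdx2 and Nf2. They were taken by symbol for their known roles, and 10 of 10 were found among the 48967 genes counted. The study asked how the transcriptome responds when the lipid droplets are removed from the zygote. All embryos were F1 C57Bl/10 X CBA/H, cultured in fatty acid-free KSOM until 2.0 dpc. In the delipidated group the zygotes had been centrifuged with cytochalasin B, the zona was opened with a laser, and the lipid fraction was aspirated. The control embryos were cultured without removal of lipids, and the sources used here do not say that they went through the other steps, so that removal of lipids and handling cannot be told apart. Each group had 3 libraries, and each library was made from a pool of 3 embryos. All pools were drawn from a common collection of embryos of hormonally stimulated females, so the p-values measure the spread between pools.

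The Hippo pathway is a kinase cascade that controls where the coactivators YAP1 and WWTR1 (TAZ) reside. LATS1 and LATS2 phosphorylate both coactivators and keep them in the cytoplasm, with the help of NF2 and of the angiomotins AMOT and AMOTL2 at the membrane. In the outer cells of the morula the kinases are inactive, the coactivators enter the nucleus, and together with TEAD4 they switch on Cdx2, a transcription factor of the trophectoderm lineage.

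For each library the deposited file gave raw counts per exonic part (exons split wherever annotated transcripts differ), and these were added up per gene. The counts assigned to genes were 12164963, 16165958 and 12980787 in control replicates 1 to 3 and 20059460, 16332103 and 14683741 in delipidated replicates 1 to 3. Fewer genes had a count in each delipidated than in each control library, 17091, 19408 and 20158 against 22855, 22437 and 20582. Of 30967 genes with a count in any library, 22.0% had counts in control libraries alone and 7.29% in delipidated libraries alone. A read that spans several parts is counted in each of them, so the sums exceed the number of reads. Levels are given in CPM, for which each count is divided by the TMM-normalized size of its library. Where genes are compared with each other, CPM per kb of the summed exonic parts is used. Groups were compared with edgeR's quasi-likelihood test across 16020 genes, and a gene was called at a Benjamini-Hochberg adjusted p under 0.05 and a log2 fold change beyond 1.

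Markers of the labelled stage were present. All 8 markers of 2-cell genome activation and all 13 maternal oocyte markers were counted in each of the 6 libraries. The activation markers summed to 401, 151 and 344 CPM in control pools against 226, 284 and 406 CPM in delipidated pools. Zfp352 was between 42.2 and 144 CPM, and per kb it overlapped with Tcstv3, at means of 39.2 and 39.6 CPM per kb. Oosp1 had the highest level of the maternal markers, at a mean of 477 CPM per kb, and was between 338 and 570.5 CPM. Control replicate 2 had the lowest sum of both lists, with 1229 CPM of maternal markers against 1392 to 2013 CPM in the other libraries.

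Of the 10 genes, 9 passed the filter on low counts and were tested, and Cdx2 did not. With edgeR 0 of the 9 were called, as were 0% of the 16020 genes tested. An unadjusted p under 0.05 was found for 0 of the 9 and for 2.89% of all tested genes. DESeq2 and limma-voom also gave 0 calls and 0 unadjusted p under 0.05 among them. Over all genes, DESeq2 without a filter before the fit called 49 and edgeR without a filter 30. The groups did not overlap for 1 of the 9, Amot, against 8.86% of all tested genes. The fold change was positive for 3 and negative for 6 of the 9, and the median log2 fold change was -0.22, beside -0.0007 over all tested genes. This median rested in part on control replicate 2, without which it was 0.04. In bulk libraries such as these, fewer cells with a transcript and less of it per cell cannot be told apart.

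**Figure D1:**
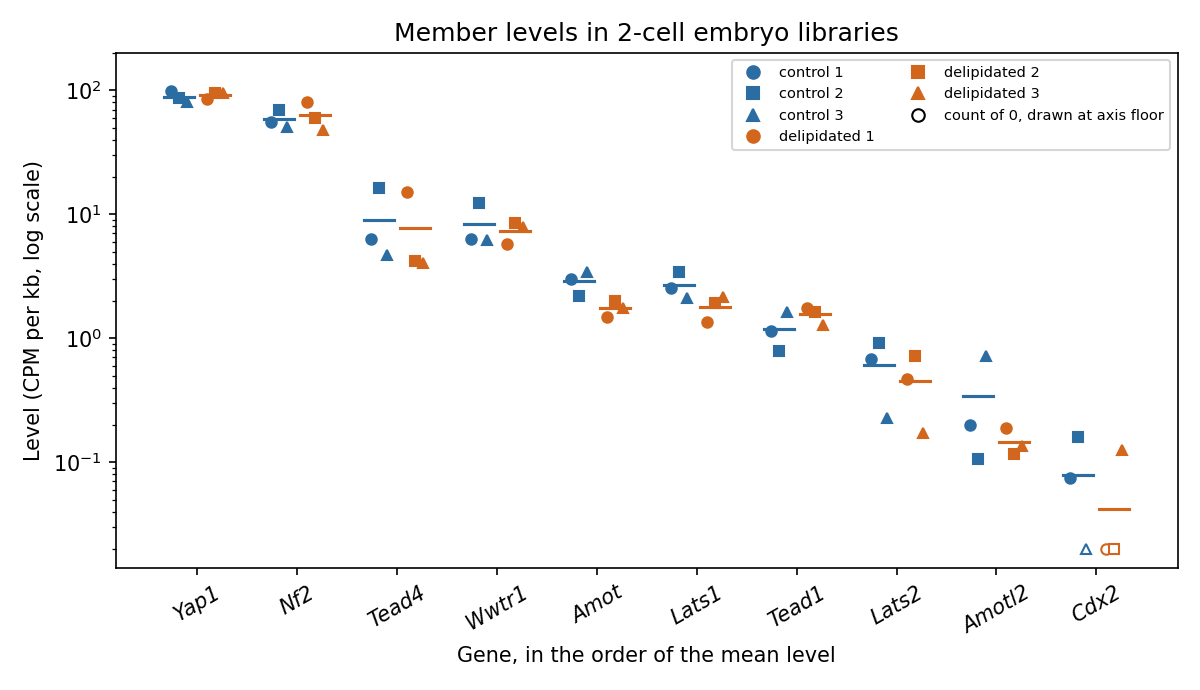
Levels of the 10 genes in CPM per kb on a log scale, with 1 symbol per library and a bar at each group mean; a count of 0 is drawn as an open symbol at the bottom. Yap1 and Nf2 lie between 48.2 and 98.5 CPM per kb, and each other gene is at 16.2 CPM per kb or less.

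The levels spanned a wide range. Averaged over the 6 libraries, Yap1 stood at 90.3 and Nf2 at 60.6 CPM per kb, and 96.9% and 94.9% of the tested genes had a lower level. Tead4 with 8.42 and Wwtr1 with 7.85 CPM per kb followed, then Amot with 2.31, Lats1 with 2.25 and Tead1 with 1.37 CPM per kb. Lats2 with 0.530, Amotl2 with 0.243 and Cdx2 with 0.0600 CPM per kb closed the order. Between neighbours, the libraries were fully separate for Nf2 above Tead4 and for Wwtr1 above Amot, and the other neighbours overlapped. Yap1 was above Nf2 in each library, although the ranges over libraries overlapped, at 80.0 to 98.5 for Yap1 and 48.2 to 80.5 CPM per kb for Nf2. The order depends on how a gene's parts are summarised. When 1 part stood for each gene, the one with most counts, and its own length was used, Nf2 came to 159 and Yap1 to 86.0 CPM per kb, and 1 of the 10 genes kept its place.

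**Figure D2:**
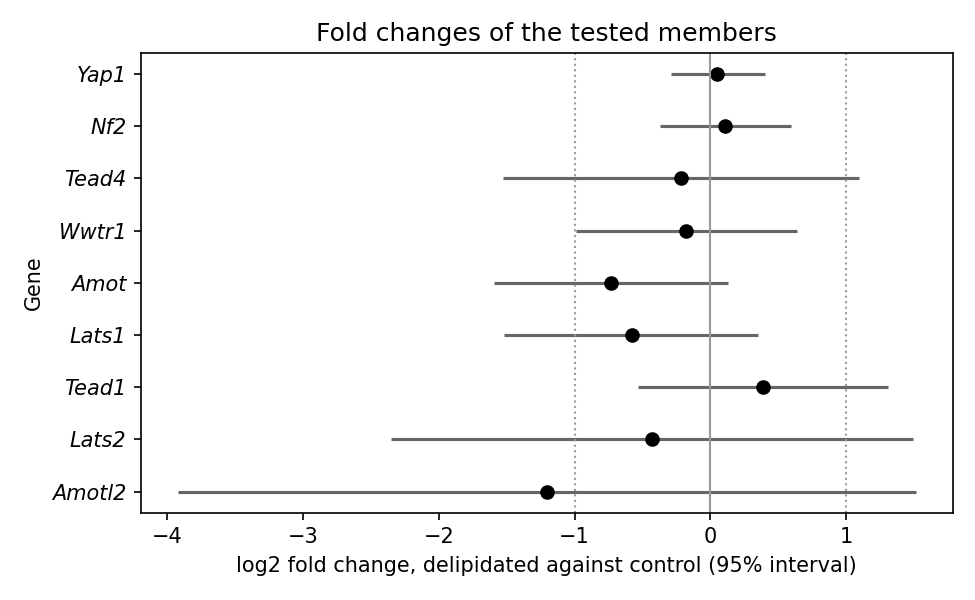
The log2 fold change of delipidated against control embryos for the 9 tested genes, with the 95% interval from edgeR's quasi-likelihood fit; dotted lines mark a log2 fold change of 1 in either direction. Each interval includes 0, and it is narrowest for Yap1, from -0.29 to 0.40, and widest for Amotl2, from -3.92 to 1.51.

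Yap1, the more abundant of the coactivators, is listed as ENSMUSG00000053110 and lies on the reverse strand of chromosome 9 of GRCm38 from 7931999 to 8004596. Summed over its parts it had 10811, 13378 and 9746 counts in control pools against 15904, 14365 and 12546 counts in delipidated pools. The level was 912, 809 and 741 CPM in control pools against 785, 882 and 886 CPM in delipidated pools. All 6 libraries lay within 1.23-fold of each other, and the groups overlapped. The mean was 821 ± 86.3 CPM (SD, n = 3) in control pools against 851 ± 57.1 CPM (SD, n = 3) in delipidated pools. Its log2 fold change came to 0.05 (SE 0.16, edgeR adjusted p = 1.00), with a 95% interval from -0.29 to 0.40, and its sign changed without control replicate 3 (-0.02) and with the part with most counts (-0.04).

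The parts of Yap1 gave more detail on its transcripts. The first exon with the annotated start codon runs from 8004115 to 8004596 in 3 parts, and its best covered part, from 8004115 to 8004390, held 319, 375 and 234 counts in control pools against 295, 432 and 415 counts in delipidated pools. Another 3 parts, between 8003451 and 8003775, held at most 51 counts on any part in any library, and those were in delipidated replicate 3. The best covered part of the first exon thus held more counts than any of these 3 parts in each library. The parts from 7973796 to 7973911 share their place with an exon of Gm20416 on the opposite strand, and they carried between 10.6% and 15% of the gene's counts. The Gm20416 part there, from 7973784 to 7974037, had 777, 982 and 717 counts in control pools against 1476, 978 and 849 counts in delipidated pools. Per the study's methods the libraries were strand-specific, but the sources do not state that strand was used in counting. The genes therefore cannot be told apart at this exon.

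A 48-base exon of Yap1, from 7950492 to 7950539, is present in some annotated transcripts and skipped in another. It held 87, 116 and 57 counts in control pools against 188, 57 and 71 counts in delipidated pools. The neighbouring exon upstream, from 7952953 to 7953134, held 1140, 1479 and 1179 counts in control pools against 1736, 1499 and 1560 counts in delipidated pools. The downstream neighbour, from 7938408 to 7938538, held 708, 974 and 715 counts in control pools against 942, 889 and 813 counts in delipidated pools. Both neighbours, of 182 and 131 bases, thus held more counts than the exon in each library. Relative to the mean count of both neighbours, not corrected for length, the exon was at 9.42%, 9.46% and 6.02% in control pools against 14.0%, 4.77% and 5.98% in delipidated pools. The group means were 8.30% ± 1.97 (SD, n = 3) and 8.27% ± 5.04 (SD, n = 3), and per base of exon they were 27.3% ± 6.45 (SD, n = 3) and 27.6% ± 16.8 (SD, n = 3). Delipidated replicate 1 was the highest and delipidated replicate 2 the lowest, and the groups overlapped. The sequences show the transcript with the exon, in capitals, between the last and the first 20 bases of its neighbours, and the junction of the transcript that skips it, on the reverse strand of chromosome 9 as given in the GENCODE transcripts.
Yap1 with the exon: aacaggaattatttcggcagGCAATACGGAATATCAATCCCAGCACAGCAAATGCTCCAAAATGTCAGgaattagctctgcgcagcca
Yap1 without the exon: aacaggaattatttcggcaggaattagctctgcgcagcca

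Wwtr1, the gene of the coactivator TAZ, is listed as ENSMUSG00000027803 on the reverse strand of chromosome 3 from 57455649 to 57575910. Its level was 30.5, 59.4 and 29.4 CPM in control pools against 27.7, 40.5 and 37.5 CPM in delipidated pools, from 361, 983 and 387 counts and 561, 659 and 531 counts. Control replicate 2 was the highest and delipidated replicate 1 the lowest of the 6 libraries, and the groups overlapped. In edgeR the log2 fold change came to -0.18 (SE 0.37, adjusted p = 1.00), and it was 0.24 without control replicate 2. Per kb, Wwtr1 was between 5.80 and 12.4 CPM per kb and Yap1 between 80.0 and 98.5 CPM per kb, so the coactivators were separate in level in all libraries. The part of Wwtr1 with most counts, the exon from 57477357 to 57477556, held 77, 228 and 82 counts in control pools against 115, 202 and 126 counts in delipidated pools.

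The TEAD factors bind DNA and carry the coactivators to their target genes. Tead4, listed as ENSMUSG00000030353, lies on the reverse strand of chromosome 6 from 128224288 to 128300823. Its counts were 268, 965 and 221 in control pools against 1105, 244 and 206 in delipidated pools. This came to 22.6, 58.4 and 16.8 CPM in control pools against 54.6, 14.99 and 14.5 CPM in delipidated pools. Control replicate 2 and delipidated replicate 1 were high, at 4.01-fold between the highest and the lowest library, while the remaining libraries of both groups lay between 14.5 and 22.6 CPM. The spread within each group was thus larger than the difference between the means, which were 32.6 ± 22.5 CPM (SD, n = 3) in control pools against 28.0 ± 23.0 CPM (SD, n = 3) in delipidated pools. The log2 fold change of -0.22 had a standard error of 0.60 (edgeR, adjusted p = 1.00). Its direction followed single libraries, being -1.14 without delipidated replicate 1 and 0.51, 0.08 and 0.09 without control replicate 2, delipidated replicate 2 or delipidated replicate 3. With the part with most counts it was 0.05. For comparison, and named after their values were seen, Esrrb and Ajuba also had their highest CPM in delipidated replicate 1 and control replicate 2, with delipidated replicate 1 above control replicate 2, whereas Tead4 had the reverse order. Esrrb had 164, 817 and 413 counts in control pools against 1020, 630 and 275 counts in delipidated pools, and Ajuba had 168, 525 and 247 counts in control pools against 813, 474 and 294 counts in delipidated pools. Fgf4 and Prkcz, an inner cell mass and a polarity gene also named after their values were seen, had these libraries on top as well. How many of all genes do was not counted.

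The counts of Tead4 nearly ended at its second exon. That exon, from 128270868 to 128271122, holds the annotated start codon, and its best covered part had 22, 103 and 23 counts in control pools against 77, 7 and 11 counts in delipidated pools. The 7 parts further upstream, which lie between 128275452 and 128300823, together had 4, 0 and 2 counts in the control and 0 counts in each of the delipidated libraries. Only 2 of these 7 parts held any count. Libraries with high and with low Tead4 levels were alike in this, with few or no counts on the annotated exons upstream of the start codon exon. In Tead1, whose start codon also lies in the second exon, the 7 parts further upstream held 5, 2 and 33 counts in control pools against 65, 22 and 51 counts in delipidated pools, and in Wwtr1 the 3 parts upstream held 23, 25 and 23 counts in control pools against 83, 13 and 33 counts in delipidated pools. Where the Tead4 transcripts began was not tested, since the files hold counts for annotated exons alone. The coding sequence of the second exon, the most upstream piece of Tead4 that was counted throughout, is printed from the GENCODE transcripts, from 128271072 down to 128270868 on the reverse strand of chromosome 6, with the annotated start codon, which is not ATG, in capitals.
Tead4 exon with the start codon: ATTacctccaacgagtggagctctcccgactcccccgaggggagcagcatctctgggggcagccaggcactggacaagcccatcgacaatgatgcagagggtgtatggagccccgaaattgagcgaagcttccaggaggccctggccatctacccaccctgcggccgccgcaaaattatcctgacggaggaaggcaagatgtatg

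Tead1, listed as ENSMUSG00000055320 on the forward strand of chromosome 7 from 112679318 to 112906807, was the other TEAD gene of the set. Its level was 15.6, 10.7 and 22.1 CPM in control pools against 24.0, 22.1 and 17.3 CPM in delipidated pools. Control replicates 1 and 2 were the lowest, and the groups overlapped through control replicate 3. Its log2 fold change came to 0.39 (SE 0.42, edgeR adjusted p = 1.00), and it was 0.16 without control replicate 2 and 0.68 without control replicate 3. With the part with most counts, the 6815-base last part from 112899991 to 112906805, it was -0.56, from 13, 65 and 79 counts in control pools against 68, 26 and 40 counts in delipidated pools. Per kb, Tead4 was above Tead1 in each library, at 4.04 to 16.2 against 0.789 to 1.77 CPM per kb.

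**Figure D3:**
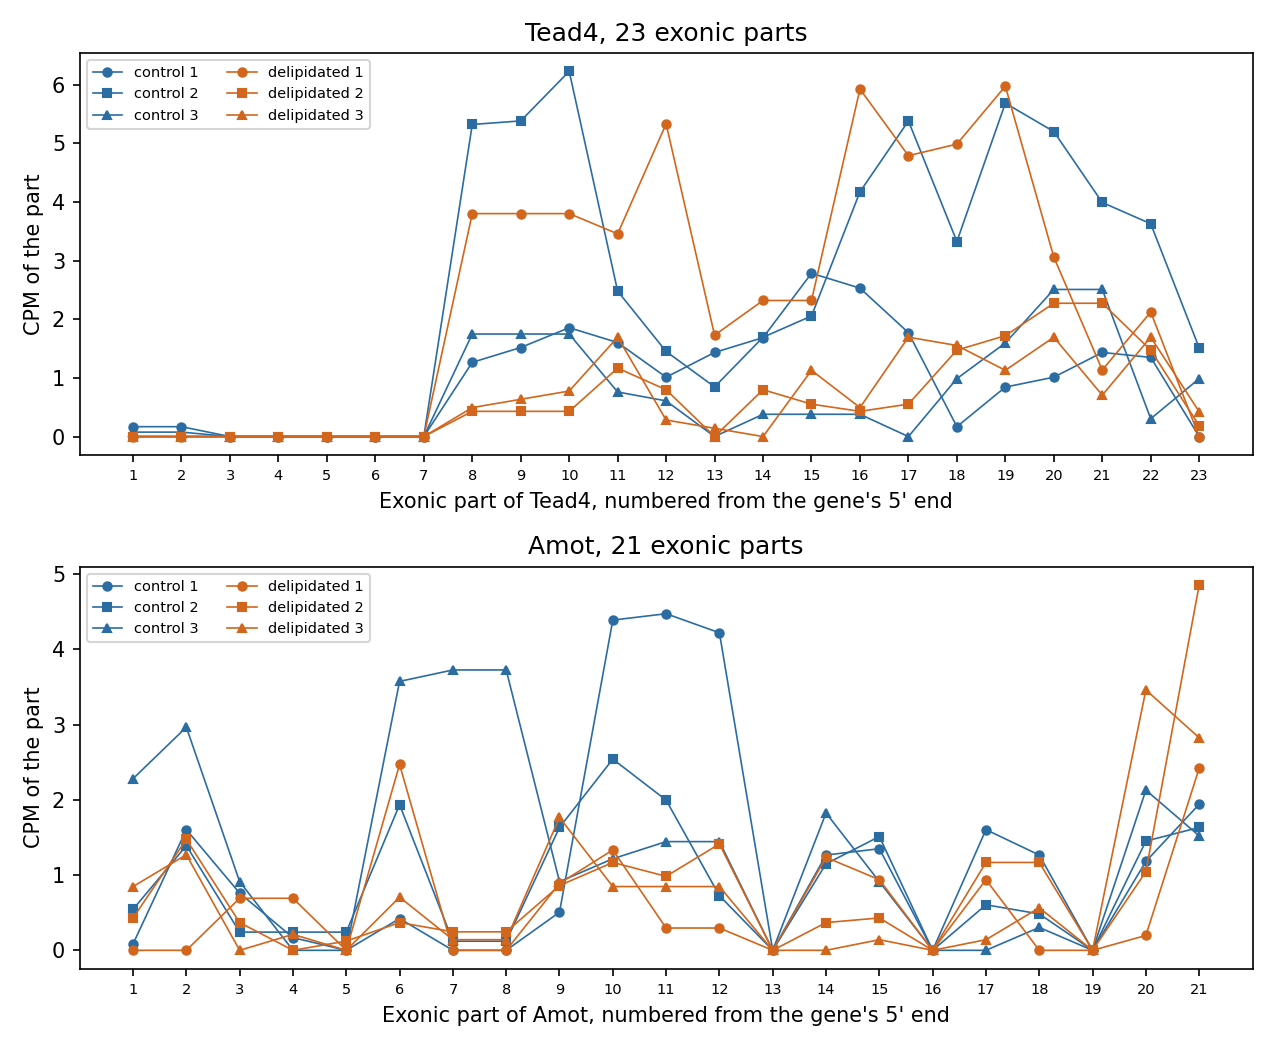
CPM of each exonic part of Tead4 and of Amot, numbered from the 5′ end of the gene, with 1 line per library. The first 7 parts of Tead4 are at or near 0 in all libraries, and in Amot the last part is higher and parts 10 to 12 are mostly lower in the delipidated libraries.

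The LATS kinases were counted at low levels. Lats1, listed as ENSMUSG00000040021 on the forward strand of chromosome 10 from 7681214 to 7716460, had 18.6, 25.0 and 15.4 CPM in control pools against 9.83, 13.9 and 15.7 CPM in delipidated pools. Delipidated replicates 1 and 2 lay below all control libraries, and delipidated replicate 3 lay above control replicate 3. The mean was 19.7 ± 4.90 CPM (SD, n = 3) in control pools against 13.1 ± 3.00 CPM (SD, n = 3) in delipidated pools. In edgeR the log2 fold change came to -0.58 (SE 0.43, adjusted p = 1.00), and it stayed negative in all 15 alternatives, between -0.73 and -0.35. Its coverage was incomplete. In delipidated replicate 1 counts fell on 3 of the 12 parts, and 140 of its 199 counts were on the part with most counts, from 7701610 to 7703120, against 7 to 11 parts with counts in the other libraries.

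Lats2, listed as ENSMUSG00000021959 on the reverse strand of chromosome 14 from 57689662 to 57758388, had 56, 106 and 21 counts in control pools against 66, 81 and 17 counts in delipidated pools, or 4.72, 6.41 and 1.60 CPM and 3.26, 4.98 and 1.20 CPM. Replicate 3 of each group was lowest, and the groups overlapped. Its log2 fold change came to -0.43 (SE 0.88, edgeR adjusted p = 1.00), and it was 0.05 with the part with most counts. Leaving out 1 library gave -0.93 without delipidated replicate 2, -0.83 without control replicate 3, -0.05 without delipidated replicate 3 and -0.01 without control replicate 2. All of its parts were listed under a joined identifier with an overlapping gene, 26 of them could be assigned to Lats2, and between 2 and 10 of these held counts in a library. In GENCODE the transcript of Gm49361 also runs through 13 of the 26 parts on the same strand, and Lats2 and Gm49361 cannot be told apart there. These parts carried 91.1%, 63.2% and 95.2% of the counts in control pools against 42.4%, 38.3% and 41.2% in delipidated pools. Their share was higher in all control libraries, so the fold change compares different mixtures of parts. Per kb, Lats1 was above Lats2 in each library, at 1.35 to 3.43 against 0.172 to 0.920 CPM per kb.

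Upstream of the kinases, NF2 (merlin) recruits LATS to the membrane. Nf2, listed as ENSMUSG00000009073 on the reverse strand of chromosome 11 from 4765845 to 4849536, had 379.8, 469.8 and 344 CPM in control pools against 549, 411 and 329 CPM in delipidated pools. Delipidated replicates 1 and 3 were the highest and the lowest of the 6 libraries, so that the delipidated group spanned the control group. The mean was 398 ± 65.0 CPM (SD, n = 3) in control pools against 429.8 ± 111 CPM (SD, n = 3) in delipidated pools, a log2 fold change of 0.11 (SE 0.22, edgeR adjusted p = 1.00). Without delipidated replicate 1 the log2 fold change was -0.10. Each of the 37 parts of the gene held a count in at least 1 library.

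Counts were uneven along Nf2. The part with most counts, from 4789665 to 4789882, held 399, 497 and 254 counts in control pools against 1001, 665 and 483 counts in delipidated pools, and in CPM this part was higher in all delipidated than in all control libraries, at 34.1 to 49.4 against 19.3 to 33.7 CPM. The part from 4767953 to 4768273 near the 3′ end went the other way, at 0.839 to 1.98 against 2.28 to 3.63 CPM. The 1820-base last part, from 4765845 to 4767664, held 215, 374 and 232 counts in control pools against 451, 302 and 199 counts in delipidated pools, fewer than the 218-base part named first. A 45-base exon from 4780578 to 4780622, present in 1 annotated transcript and skipped in another, held 16, 43 and 0 counts in control pools against 62, 25 and 6 counts in delipidated pools. Its upstream neighbour, from 4782187 to 4782352, held 129, 247 and 141 counts in control pools against 395, 246 and 151 counts in delipidated pools. The downstream neighbour of 609 bases is split into parts, and its best covered part in each library gave its count. Relative to the mean count of this part and the upstream neighbour of 166 bases, the exon was at 15.1% ± 13.7 (SD, n = 3) in control pools against 16.0% ± 9.29 (SD, n = 3) in delipidated pools. Per base of exon, with the parts of the downstream neighbour added up, it was at 64.0% ± 58.2 (SD, n = 3) and 67.3% ± 40.4 (SD, n = 3). The scales thus differ both in the correction for length and in the count of the downstream neighbour. The groups overlapped on both scales.

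The angiomotins bind NF2 and the coactivators. Amot, listed as ENSMUSG00000041688 on the reverse strand of chromosome X from 145446425 to 145505181, had 299, 307 and 380 counts in control pools against 251, 272 and 209 counts in delipidated pools. Its level was 25.2, 18.6 and 28.9 CPM in control pools against 12.4, 16.7 and 14.8 CPM in delipidated pools. Amot was the 1 gene of the set whose groups did not overlap, with all delipidated libraries lower, and the gap between the highest delipidated and the lowest control library was small. The mean was 24.2 ± 5.23 CPM (SD, n = 3) in control pools against 14.6 ± 2.16 CPM (SD, n = 3) in delipidated pools. It changed by a log2 fold of -0.73 (SE 0.39), the unadjusted p was 0.0887 in edgeR's quasi-likelihood test, and the adjusted p was 1.00. Leaving out each library in turn gave -0.89 to -0.59.

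The lower level of Amot did not hold along the whole gene. On the last part of 3674 bases, from 145446425 to 145450098, the counts were 23, 27 and 20 in control pools against 49, 79 and 40 in delipidated pools, which is 1.94, 1.63 and 1.52 CPM against 2.42, 4.85 and 2.82 CPM. All delipidated libraries were higher there, and the log2 fold change on this part, the one with most counts, was 0.94. On the part from 145475720 to 145475812 the counts were 53, 33 and 19 in control pools against 6, 16 and 12 in delipidated pools, with all delipidated libraries lower in CPM. In control replicate 3 the neighbouring parts from 145486765 to 145487639 held 49, 49 and 47 counts, a block that was not seen in the other control libraries, where these parts held 0 to 32 counts. Delipidated replicate 1 had 0, 0 and 50 counts there. Over the set, 173 parts held a count in at least 1 library, and the groups did not overlap on 15 of them, or 8.67%, 9 lower and 6 higher in the delipidated libraries, against 6.31% of 267588 parts of all genes with a count. Parts of a gene share reads and are not independent. The 6 higher parts were 3 of Yap1 and 1 each of Tead1, Amot and Nf2, and the 9 lower parts were 3 of Lats1, 2 each of Wwtr1 and Lats2, and 1 each of Amot and Nf2. On the Yap1 part from 7962308 to 7962402 the level was 60.1, 54.7 and 52.8 CPM in control pools against 65.4, 65.3 and 64.0 CPM in delipidated pools. On the Lats1 part from 7712501 to 7713280 the counts were 20, 65 and 29 in control pools against 0, 10 and 9 in delipidated pools. On the Wwtr1 exon with the start codon, from 57574823 to 57575257, the level was 7.76, 13.8 and 8.51 CPM in control pools against 5.14, 5.47 and 7.41 CPM in delipidated pools. The count of such parts is near the share over all genes, and nothing is read from it about the set.

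Amotl2, listed as ENSMUSG00000032531 on the forward strand of chromosome 9 from 102716672 to 102733418, had 15, 11 and 59 counts in control pools against 24, 12 and 12 counts in delipidated pools. Control replicate 3 was high, at 4.48 CPM against 0.665 to 1.27 CPM in the other libraries, and the groups overlapped. In edgeR the log2 fold change came to -1.20 (SE 1.24, adjusted p = 1.00), and without control replicate 3 it was -0.06. Between 2 and 6 of its 42 parts held counts in a library, and the 11 parts upstream of the start codon exon had 0 counts in all libraries. In delipidated replicate 1 the 24 counts were 12 on each of 2 parts. The most counts fell on a tied pair of parts, from 102730793 to 102730969 and from 102731648 to 102731947, each with 3, 0 and 19 counts in the control and 0 counts in each of the delipidated libraries. The 95% interval of the log2 fold change ran from -3.92 to 1.51.

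Cdx2, the trophectoderm factor of the set, is listed as ENSMUSG00000029646 on the reverse strand of chromosome 5 from 147300805 to 147307270. It had 2, 6 and 0 counts in control pools against 0, 0 and 4 counts in delipidated pools. In each of the libraries with a count it lay on a single part, in control replicate 2 on the 1289-base part from 147300805 to 147302093, and in control replicate 1 and delipidated replicate 3 on the first exon. A count of 0 allows up to 3 counts, which is 0.228 CPM in control replicate 3 and 0.148 and 0.184 CPM in delipidated replicates 1 and 2, a limit for counting error alone. The group means of 0.177 CPM in control and 0.0941 CPM in delipidated pools were below the limit of each library in their group, 0.181 to 0.253 CPM and 0.148 to 0.212 CPM, and no fold change is given.

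Other genes of the pathway were not called either, and since 0% of all 16020 tested genes were, this is not particular to the pathway. Of 30 further Hippo pathway genes 28 were tested, 13 with a positive and 15 with a negative fold change, and the median log2 fold change was -0.01, between -0.06 and 0.13 with each library left out. None was called and none had an unadjusted p under 0.05 (0 genes each) with edgeR. The smallest p-values belonged to Tead3, with 44, 12 and 33 counts in control pools against 27, 175 and 124 counts in delipidated pools (log2 fold change 1.59, standard error 0.93), and to Ptpn14 (log2 fold change -1.45, standard error 0.93). With each library left out Tead3 ranged from 1.12 to 2.12, and without delipidated replicate 1 its unadjusted p was 0.0241 in edgeR's quasi-likelihood test. Ptpn14 ranged from -2.35 without delipidated replicate 2 to -0.95 without delipidated replicate 3. Wwc2 had the highest level per kb, with a mean of 76.0 CPM per kb, and was at 1020.3 ± 99.1 CPM (SD, n = 3) in control pools against 1075 ± 150.4 CPM (SD, n = 3) in delipidated pools. Vgll4, a TEAD cofactor named after its values were seen, was the 1 gene among the 28 whose groups did not overlap, a smaller share than the 8.86% of all tested genes, at 4.22 ± 1.29 CPM (SD, n = 3) in control pools against 7.39 ± 0.712 CPM (SD, n = 3) in delipidated pools.

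Among 20 target genes of YAP and TEAD 9 were tested, 3 with a positive and 6 with a negative fold change, and 0 had an unadjusted p under 0.05. Their median log2 fold change was -0.14, and it was -1.77 without delipidated replicate 2 and 0.10 without delipidated replicate 1. Without the filter on low counts the median of the list was -1.1 with edgeR and -0.74 with DESeq2. With the replicate block and with limma-voom it was -0.83. Ptpn14, which also belongs to this list, and Myof (log2 fold change -0.75, standard error 0.82) had the smallest p-values. Myof ranged from -1.14 without delipidated replicate 2 to -0.33 without delipidated replicate 3. Asap1, highest per kb with a mean of 57.6 CPM per kb, was at 439.6 ± 19.8 CPM (SD, n = 3) in control pools against 422 ± 134 CPM (SD, n = 3) in delipidated pools. Another 5 targets, Axl, F3, Rbms3, Foxf2 and Ccdc80, named after their values were seen, had 0 counts in all delipidated libraries and counts in the control group alone, led by Axl with 59, 2 and 206 counts, and they did not pass the filter on low counts. These were 5 of 20 targets, beside 22.0% of all genes with a count.

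Of 22 trophectoderm genes 16 were tested, and 1 of them, Eomes, had an unadjusted p under 0.05, beside 2.89% of all tested genes. Eomes, a transcription factor of the trophoblast, had 88, 113 and 167 counts in control pools against 49, 26 and 17 counts in delipidated pools, or 8.98 ± 3.23 CPM (SD, n = 3) against 1.74 ± 0.622 CPM (SD, n = 3). All delipidated libraries were lower. Between groups the log2 difference came to -2.36 (SE 0.70), the unadjusted p was 0.00580 in edgeR's quasi-likelihood test, and the adjusted p was 1.00. The lowest adjusted p over the alternatives was 0.0770 with DESeq2, so Eomes was called in none of them (0 of 15). With the part with most counts the log2 fold change was -1.90 and the unadjusted p 0.204 in edgeR's quasi-likelihood test. Gata3, named after its values were seen, went the other way without overlap, from 25, 28 and 10 counts in the control to 60, 57 and 58 counts in the delipidated libraries (log2 fold change 1.21, standard error 0.95). Thus 1 higher and 1 lower gene of the 16 had groups without overlap, beside 8.86% of all tested genes in either direction. Over the 16 tested genes the median was -0.11 on the log2 scale, with 5 positive and 11 negative. It was -0.25 without delipidated replicate 1 and 0.02 with the part with most counts. Dab2 was between 99.2 and 189 CPM. Per kb, Klf5 was above Dab2, at means of 49.1 and 20.9 CPM per kb. Elf5 had 1 count in delipidated replicate 2 and 0 counts in the other libraries.

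Of 13 inner cell mass genes 10 were tested, with 0 unadjusted p under 0.05 and a median log2 fold change of 0.05, which was 0.48 without delipidated replicate 3 and 0.34 without control replicate 2. Klf4 (log2 fold change -0.53, standard error 0.33) and Sox2 (log2 fold change 0.70, standard error 0.77) had the smallest p-values, and Pou5f1 was at 231 ± 65.1 CPM (SD, n = 3) in control pools against 228 ± 53.5 CPM (SD, n = 3) in delipidated pools. Per kb, Pou5f1 and Klf17 had the highest levels and overlapped, at means of 102 and 95.5 CPM per kb. Klf4 ranged from -0.84 without delipidated replicate 1, with an unadjusted p of 0.0319 in edgeR's quasi-likelihood test, to -0.25 without delipidated replicate 3. Sox2 ranged from 0.38 without delipidated replicate 2 to 1.04 without control replicate 3. All 20 polarity and adhesion genes were tested, 10 in each direction, with a median log2 fold change of 0.01, between -0.05 and 0.07 with each library left out. Rock1 had the highest level of these genes per kb, with a mean of 219 CPM per kb, and was between 1182 and 1552 CPM. Cdh1, the gene of E-cadherin, was the 1 gene of these 20 with an unadjusted p under 0.05, beside 2.89% of all tested genes. Cdh1 was also the 1 gene of the list whose groups did not overlap, beside 8.86% of all tested genes. It had 1482, 2319 and 1753 counts in control pools against 1424, 1443 and 1046 counts in delipidated pools, or 133 ± 7.61 CPM (SD, n = 3) against 77.6 ± 9.73 CPM (SD, n = 3), and all delipidated libraries were lower. On the log2 scale the fold change came to -0.78 (SE 0.23), the unadjusted p was 0.00532 in edgeR's quasi-likelihood test, and the adjusted p was 1.00, with 0.212 as the lowest over the alternatives. With the part with most counts the log2 fold change of Cdh1 was -0.43 and the unadjusted p 0.253 in edgeR's quasi-likelihood test.

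Markers of other cell types were read beside these values. The 11 stromal markers summed to 21.1, 23.0 and 32.1 CPM in control pools against 1.93, 5.53 and 4.94 CPM in delipidated pools, without overlap. Vim had the highest mean level per kb, 1.56 CPM per kb, with 152, 145 and 300 counts in the control and 0 counts in each of the delipidated libraries, and S100a4 was at 0 in all. Col1a1 had 11, 26 and 42 counts in the control and 0 counts in each of the delipidated libraries. Counts in the control group alone were found for 5 of the 11 markers, Col1a1, Col3a1, Vim, Pdgfrb and Lum, beside 22.0% of all genes with a count. Of the 5 stromal markers that were tested, the groups overlapped for all but Vim and Col1a1. Pdgfra had 30, 83 and 21 counts in control pools against 39, 57 and 4 counts in delipidated pools. Dcn had 27 counts in delipidated replicate 3 alone. Col3a1, Pdgfrb, Lum, Pdgfra and Dcn are named after their values were seen. The unadjusted p was 4.5e-06 for Vim and 0.00455 for Col1a1, and the adjusted p from edgeR's quasi-likelihood test was 0.0721 and 1.00. Both genes passed the filter on low counts through the control libraries alone, so nothing beyond the counts is read from these p-values. DESeq2 and edgeR without a filter on low counts before the fit called Vim. The 12 cumulus and granulosa markers summed to 6.24, 10.2 and 66.7 CPM in control pools against 2.12, 9.77 and 12.1 CPM in delipidated pools. Cyp11a1 had 4, 0 and 653 counts in the control and 0 counts in each of the delipidated libraries, and Ptx3 and Foxl2 were at 0 in all libraries. Star (log2 fold change -1.61, standard error 1.72, and -3.57 without delipidated replicate 3) and Tnfaip6 (0.15, standard error 1.02) had the smallest p-values of the 3 tested, 0 of them under 0.05, and Tnfaip6 was -0.31 without control replicate 1 and -0.63 without delipidated replicate 2. Control replicate 3, which was highest in the stromal and the cumulus sums, was also the library with the highest Amot, Amotl2, Eomes and Axl counts in the control group. These genes were picked after their values were seen. In the set, control replicate 3 also had the highest control CPM of Tead1. It had the lowest control CPM of Tead4, Yap1, Wwtr1, Lats1, Lats2, Nf2 and Cdx2. Without control replicate 3 the log2 fold change was -0.59 for Amot, -0.06 for Amotl2 and -2.03 for Eomes. Per the study's methods, zygotes had been stripped of cumulus cells with hyaluronidase and washed. The part of such cells in these values was not tested.

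In the remaining lists the summed levels of the groups overlapped. Of the 8 oviduct epithelium markers 3 were tested, with 0 unadjusted p under 0.05 in edgeR, and the list summed to 83.4, 228 and 119 CPM in control pools against 169, 200.02 and 114 CPM in delipidated pools. Epcam had the highest level per kb, with a mean of 71.2 CPM per kb, and was between 82.5 and 221 CPM, and Ovgp1 (log2 fold change 0.83, standard error 1.28, and -1.08 without delipidated replicate 1) and Muc16 (log2 fold change 0.63, standard error 1.09) had the smallest p-values. Without control replicate 3 Muc16 came to 2.77 with an unadjusted p of 0.0462 in edgeR's quasi-likelihood test, and without control replicate 1 to 0.11. Of the 10 leukocyte markers 3 were tested, also with 0 unadjusted p under 0.05, and the list summed to 12.3, 7.38 and 10.4 CPM in control pools against 3.31, 2.58 and 13.3 CPM in delipidated pools. The smallest p-values belonged to Csf1r (log2 fold change -0.72, standard error 1.05) and Itgam (log2 fold change -0.58, standard error 1.05), which were at means of 0.543 and 1.33 CPM per kb. Csf1r was -1.96 without delipidated replicate 3 and -0.22 without delipidated replicate 1, and Itgam was -1.29 without delipidated replicate 1. The median log2 fold change was 0.05 for the activation and 0.15 for the maternal markers, with 0 unadjusted p under 0.05 in both. The activation median was 0.34 without control replicate 1, -0.23 without control replicate 2 and -0.01 without delipidated replicate 3, and the maternal median was -0.02 without delipidated replicate 2, so both signs turned on single libraries. Among the activation markers Usp17la (log2 fold change -1.09, standard error 0.87, and 0.11 without control replicate 3) and Tcstv1 (log2 fold change 0.35, standard error 0.48) had the smallest p-values. Among the maternal markers Npm2 (log2 fold change 0.40, standard error 0.23) and Zp2 (log2 fold change -0.41, standard error 0.34) did. With each library left out Tcstv1 ranged from 0.01 to 0.82, Npm2 from 0.19 to 0.55 and Zp2 from -0.64 to -0.13.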

How the data were processed

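RNA-seq counts of 6 libraries, 3 control and 3 delipidated, were analysed. Per the study's methods, strand-specific total RNA libraries with depletion of ribosomal RNA were sequenced, and reads were trimmed, aligned and counted. The submitters' processing notes name bcl2fastq 2.20, Trimmomatic 0.36, STAR 2.5.2b, featureCounts and the build mm10. The authors deposited raw counts per exonic part. Parts were added up per gene, and of 33309 parts under joined identifiers, 27968 were assigned to a gene by overlap with its exons in GENCODE vM21. An assigned part can still overlap a further gene, as do 13 of the 26 parts of Lats2 with Gm49361. Between 2.49% and 2.57% of a library's counts were left out. Counts were compared across all genes with edgeR 4.0.16 in R 4.3.3 (TMM, filterByExpr at min.count 10 and min.total.count 15, quasi-likelihood test, no covariates). Standard errors are the log2 fold change divided by the root of the F statistic. The test was tested on simulated data. Tables were made with Python 3.11.15.

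Members and lists were chosen with earlier results of these data known. From each further list, genes called or with an unadjusted p under 0.05 are named, otherwise the pair with the smallest p, and the gene with the highest mean CPM and defining markers at 0. Alternatives were DESeq2 1.42.0 at its default settings without a filter before the fit, its size factors, no filter, genes averaging 50 counts or more, library sizes computed without rRNA and mitochondrial genes, a replicate block, limma-voom (limma 3.58.1), the part with most counts, joined parts left out, and each library left out.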

Additional observations from a re-analysis of the deposited data

How the results depend on the processing

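The number of genes of the set called was 0, and the number with an unadjusted p under 0.05 was 0, in each of the 15 alternatives. Their lowest unadjusted p was 0.0553, for Amot with DESeq2's Wald test. Over all genes, DESeq2 without a filter before the fit called 49 genes and edgeR without a filter 30, against 0 in edgeR with the filter and in each of the other alternatives. These 2 alternatives also moved the median log2 fold change of all genes, to -0.171 and -0.175, and the cause was not tested. The median log2 fold change of the set lay between -0.41, without delipidated replicate 1, and 0.04, without control replicate 2.

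The direction of single genes changed as follows, and the cause was not tested. With the part with most counts, the log2 fold change was -0.56 for Tead1, 0.05 for Tead4, -0.04 for Yap1, 0.05 for Lats2, 0.94 for Amot, 0.03 for Zp2 and 0.01 for Itgam, and 1 of the 10 genes kept its place in the order of levels. Without control replicate 2 it was 0.51 for Tead4 and 0.24 for Wwtr1, and without delipidated replicates 2 or 3 it was 0.08 and 0.09 for Tead4. Over the fits that left out a library, Tead4 ranged from -1.14 to 0.51, Wwtr1 from -0.36 to 0.24, Yap1 from -0.02 to 0.15 and Nf2 from -0.10 to 0.27. Without control replicate 3 it was -0.02 for Yap1 and 0.11 for Usp17la, and without delipidated replicate 1 it was -0.10 for Nf2 and -1.08 for Ovgp1. Tnfaip6 had -0.02 with limma-voom and -0.31 without control replicate 1, and leaving out each library gave -0.63 to 1.09 for Tnfaip6, -1.98 to 0.11 for Usp17la and -1.08 to 2.36 for Ovgp1. With the part with most counts Eomes and Cdh1 no longer had an unadjusted p under 0.05, and they had one in the other 14 alternatives. Lats1 and Amotl2 stayed negative in each alternative that gave a value. Without joined parts Lats2 has no value.

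The replicate numbers were not found to pair the libraries. The correlation of deviations from the group means was -0.133, 0.106 and 0.0651 for libraries with the same number, and the highest of all pairs was 0.208, between control replicate 1 and delipidated replicate 3. With the replicate block 0 genes were called and 0 genes of the set, and the median log2 fold change of the set was -0.29.

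The precision is limited by 3 pools a group from a common collection of embryos, by part counts that repeat reads, and by low counts for Lats2, Amotl2 and Cdx2. Levels concern RNA, and neither protein, phosphorylation nor the place of the coactivators in the cell was measured.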
